A study of Mus musculus with 8 samples.

Results

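Myc is a transcription factor that T cells switch on when they are activated, and ribosome biogenesis is the nucleolar process in which RNA polymerase I transcribes the ribosomal RNA precursor and a large set of assembly factors cuts, modifies and folds it into ribosomal subunits. The genes described here are Myc and 47 genes of this machinery, given as a list of symbols. All 48 listed genes were measured, by 97 probe sets, among 18193 genes and 34945 probe sets with a single gene symbol in the whole series. One probe set stood for each gene: 16 of the 48 had a single probe set, and 32 had 2 or more, with 5 at most. By role they are Myc itself, 5 subunits or factors of RNA polymerase I, 7 proteins of the small nucleolar ribonucleoprotein particles (snoRNPs) that guide methylation and pseudouridylation of ribosomal RNA, 16 factors of the small ribosomal subunit, 15 of the large subunit, and 4 nucleolar proteins with several roles.

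The study compared wildtype with RORγt-deficient CD4 T cells of C57BL/6 mice, each treated with DMSO, the solvent control, or with digoxin. RORγt is the transcription factor that directs T helper 17 (Th17) cells, and digoxin is a cardiac glycoside, a class that inhibits the sodium and potassium pump. All groups were sorted naive CD4 T cells, kept 48 hours in Th17 culture on antibodies to CD3 and CD28. The 4 groups were wildtype DMSO, wildtype digoxin, RORγt-deficient DMSO and RORγt-deficient digoxin, with 2 arrays each and 8 in all. Each array is labelled a biological replicate, with no word on separate mice or cultures, and the spread behind the p-values may then be technical in part. The deficient allele and the digoxin dose are not given in the sources used here.

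Each value below is a log2 signal from which the mean of the 2 wildtype DMSO arrays has been subtracted, probe set by probe set. A value of 0 is therefore the wildtype DMSO mean, the 2 wildtype DMSO values of a gene are equal in size and opposite in sign, and levels of different genes cannot be compared. The precision of the numbers still showed in which range the lowest array signal lay before that subtraction. It was 8 or more on the log2 scale for 37 of the 48 genes, between 4 and 8 for 10, and between 2 and 4 for Wdr12 alone; of all genes 20.8% were at 8 or more.

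The labelled cell type could be read on these arrays only by signal range, which also depends on the probe set and does not rank genes. Of 10 measured T cell markers, Cd4 and Cd3e among them, 9 had a lowest signal of 8 or more, and of 2 CD8 T cell, 5 B cell, 3 NK cell, 6 myeloid and 2 erythroid markers 0 had. None of these lists had a called gene in any comparison, but many of their values lay above 0. With deficiency in DMSO 7 of 10 T cell markers were above 0 (median 0.14), with Cd3g at 0.43 and Cd3e at 0.34 (limma, adjusted p = 0.17 and 0.232), and so were 2 of 2 CD8 T cell (median 0.23), 3 of 5 B cell (0.01), 3 of 3 NK cell (0.24) and 3 of 6 myeloid markers (-0.01). With digoxin in wildtype cells the counts above 0 were 8 of 10 T cell (median 0.06), 2 of 2 CD8 T cell (0.06), 5 of 5 B cell (0.16), 3 of 3 NK cell (0.24) and 3 of 6 myeloid markers (0.07), with the myeloid Csf1r at 0.31 and Adgre1 at 0.36 (limma, adjusted p = 0.699 for both). The part of these markers in the values of the listed genes was not tested. Il17a, the signature Th17 cytokine, read -0.02 and 0.02 on the wildtype DMSO arrays, -2.35 and -2.44 with digoxin in wildtype cells, -2.01 and -2.21 in deficient DMSO, and -3.87 and -4.12 in deficient digoxin. In bulk RNA, fewer cells that express a gene and less RNA per cell cannot be told apart.

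Myc binds DNA together with Max at the E-box, whose canonical form is CACGTG, a palindrome that reads the same on both strands. RefSeq promoters (GRCm38.p6), running from 250 bases before to 50 bases after a gene's start, were at hand for 42 of the 48 genes. Bop1, Rrp12, Npm1, Fbl, Rrs1 and Myc are the 6 others. The motif was present in 9 of 42 (21.4%), compared with 10.2% of the 14452 measured genes with such a promoter and 7.15% of all 32851 promoters. In the 50 bases after the start it was present in 7 of 42 (16.7%), compared with 1.53% of the measured genes. Before the start it was present in 2 of 42 (4.76%), compared with 8.73%. The windows below show 4 of the 9, on the gene's strand with the motif in capitals: Pes1, whose motif begins 3 bases after the start, the nearest of the 9; Wdr43 and Utp20, with the motif 18 and 38 bases after it; and Nop2, with the motif 60 bases before it. Their positions are chr11:3963965-3963994 (+) for Pes1, chr17:71616220-71616249 (+) for Wdr43, chr10:88826765-88826789 (-) for Utp20 and chr6:125131811-125131840 (+) for Nop2.
Pes1: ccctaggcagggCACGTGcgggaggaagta
Wdr43: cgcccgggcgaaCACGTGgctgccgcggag
Utp20: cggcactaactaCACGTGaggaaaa
Nop2: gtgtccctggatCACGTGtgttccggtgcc
The other 5 genes with the motif were Imp4, Ltv1, Tsr1, Grwd1 and Mybbp1a. A match of letters is a description of the window and not a measured binding site.

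Values were tested with limma on all 8 arrays, two-sided, with Benjamini-Hochberg adjustment over all 18193 genes, and a gene is called at an adjusted p under 0.05. No gene of the list was called in any of the 6 comparisons. Yet most of the assembly genes stood below the wildtype DMSO mean in the other groups, while Myc stood above it. Of the 48 genes, 31 (64.6%) had all 3 other group means below 0, compared with 28.2% of all genes. Read to 2 decimals, 16 (33.3%) were below 0 on each of the 6 arrays outside wildtype DMSO. Over all genes that share was 14.5%, counted on unrounded values. These counts set every group against the same 2 wildtype DMSO arrays. Those 16 were Polr1c, Nop58, Dkc1, Utp15, Utp20, Heatr1, Nop14, Rrp12, Ddx10, Ltv1, Tsr1, Nob1, Ebna1bp2, Nip7, Ncl and Npm1. Nhp2, Imp3, Gnl3 and Mybbp1a were not counted, since each had an array that rounded to 0, with the rest below 0. Values that round to 0 can lie below it, so 16 is a lower bound. Myc and Ubtf alone of the 48 were above 0 on all 6, as were 16.0% of all genes. The sizes were small: the range of a listed gene over the 8 arrays had a median of 0.36, compared with 0.41 over all genes. It was widest, at 0.80, for Wdr12, the only listed gene with a lowest signal between 2 and 4.

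**Figure D1:**
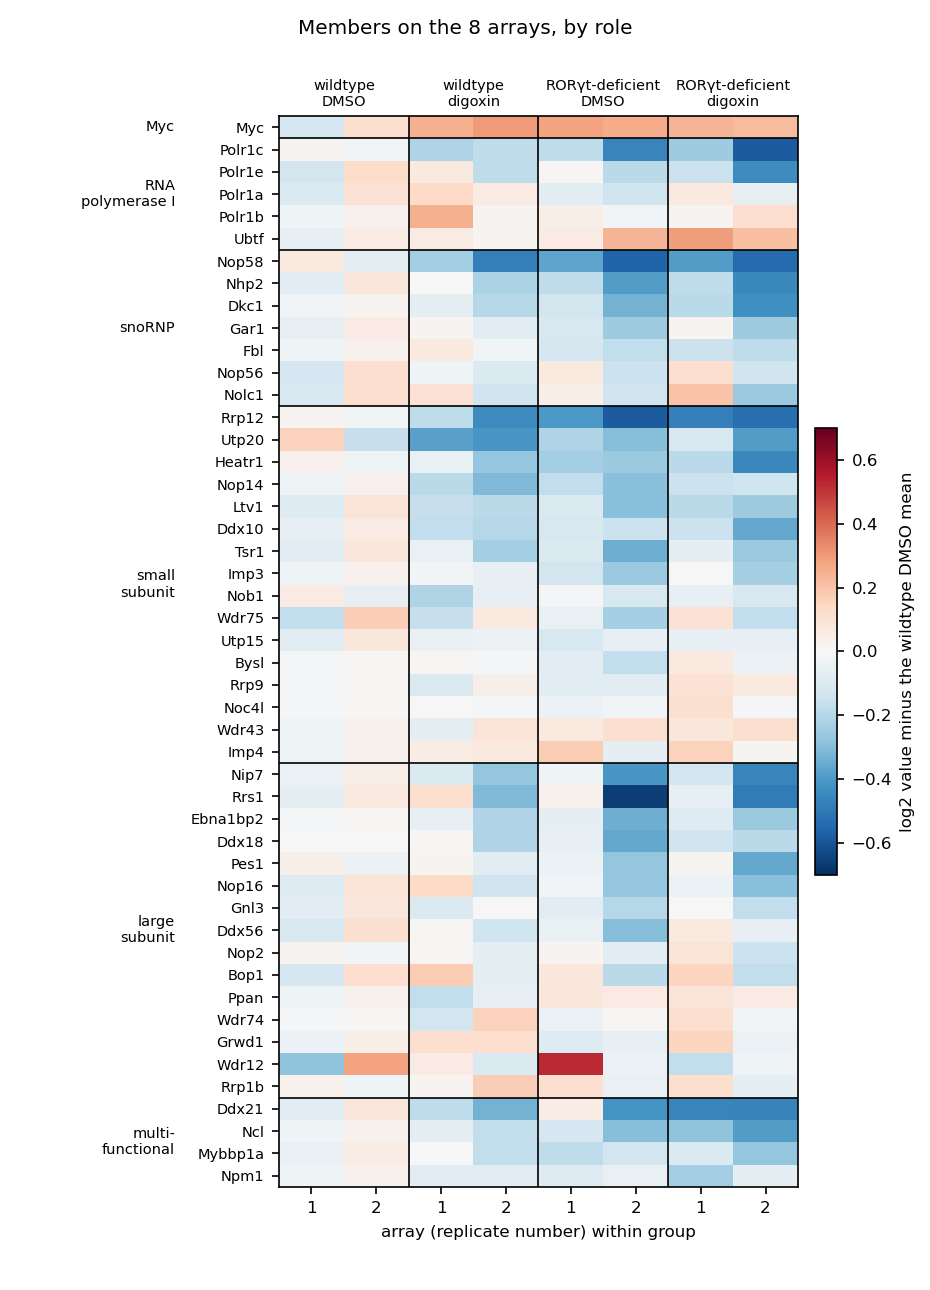
Log2 value minus the wildtype DMSO mean (colour) for the 48 genes (rows, by role) on the 8 arrays (columns, by group and replicate number). Myc and Ubtf are above 0 on all 6 arrays outside wildtype DMSO, Rrp12 and Nop58 are below 0 on all 6, and within 3 of the 4 groups the second array is the darker blue.

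Myc read -0.12 and 0.12 on the wildtype DMSO arrays, 0.25 and 0.30 in wildtype digoxin, 0.28 and 0.26 in deficient DMSO, and 0.24 and 0.22 in deficient digoxin. Both arrays of each of the other groups were above both wildtype DMSO arrays, and the 6 values of those groups lay between 0.22 and 0.30. Relative to wildtype DMSO the difference was 0.27 ± 0.112 (SE, n = 2 arrays a group; 1.21-fold higher) with RORγt deficiency and 0.27 ± 0.112 with digoxin in wildtype cells (limma, adjusted p = 0.436 and 0.688). In deficient cells digoxin gave a difference of -0.04 ± 0.112 (limma, adjusted p = 1), and the difference of the 2 digoxin effects was -0.32 ± 0.158 (95% interval -0.668 to 0.0376, limma, adjusted p = 1). The value rests on the wildtype DMSO arrays. Without the first of them the difference with deficiency was 0.149 and with digoxin in wildtype cells 0.153; without the second they were 0.391 and 0.395.

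Among the 6 comparisons, RORγt deficiency in DMSO had the most listed genes below 0 and the lowest median of the list. Of the 48 genes 40 were lower in deficient than in wildtype cells, with a median of -0.14 and a range from -0.49 to 0.27, compared with 48.5% below 0 and a median of 0.00 over all genes. None was called, compared with 1.05% of all genes (191 of 18193). At an unadjusted p under 0.05 there were 4 of 48 (8.33%), compared with 10.3% of all genes, so the count at that level was no higher than the background. Both deficient arrays were below both wildtype arrays for 25 of 48 (52.1%), compared with 21.7% of all genes, and above both for 4 (8.33%), compared with 20.1%. Those 4 were Myc, Ubtf, Wdr43 and Ppan.

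Among the roles, all 7 snoRNP genes and all 4 multifunctional nucleolar genes had differences below 0 with deficiency, with medians of -0.18 and -0.17. They were joined by 14 of 16 small subunit genes (median -0.13), 12 of 15 large subunit genes (median -0.14) and 3 of 5 RNA polymerase I genes (median -0.09). Rrp12, an export and processing factor of the small subunit, had the lowest value. It read 0.02 and -0.02 on the wildtype DMSO arrays, -0.18 and -0.44 in wildtype digoxin, -0.40 and -0.58 in deficient DMSO, and -0.48 and -0.53 in deficient digoxin. The arrays of the deficient groups did not overlap those of wildtype DMSO, and the difference with deficiency in DMSO was -0.49 ± 0.121 (1.40-fold lower; limma, adjusted p = 0.125). It was called there only in a fit with a replicate block in which the numbers of wildtype DMSO were crossed, added after the data were seen (limma, adjusted p = 0.0459; up to 0.595 under the other alternatives). Nop58, a core protein of the methylation-guiding snoRNPs, read 0.07 and -0.07, -0.24 and -0.48, -0.37 and -0.56, and -0.39 and -0.54 in the same order of groups. Its arrays were likewise apart, with a difference of -0.46 ± 0.127 (limma, adjusted p = 0.177).

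Polr1c, a subunit shared by RNA polymerases I and III, read 0.02 and -0.02 in wildtype DMSO and -0.18 and -0.46 in deficient DMSO, a difference of -0.32 ± 0.138 (limma, adjusted p = 0.466). Ubtf, the factor that opens ribosomal DNA for RNA polymerase I, lay the other way, at 0.15 ± 0.109. Nhp2, a protein of the pseudouridylating snoRNPs, differed by -0.28, and Nop14, of the small subunit processome, by -0.23. Two-sided limma p-values were smallest in the large subunit class for Ddx18, an RNA helicase (-0.21), and Ebna1bp2 (-0.20), and in the multifunctional class for Ncl, nucleolin (-0.21), and Mybbp1a (-0.16). Their adjusted p-values lay between 0.488 and 0.696. The arrays of deficient cells were not alike: Rrs1, of the large subunit, read 0.03 on the first and -0.66 on the second, and Ddx21, an RNA helicase that couples RNA polymerase I and II transcription, 0.05 and -0.42.

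**Figure D2:**
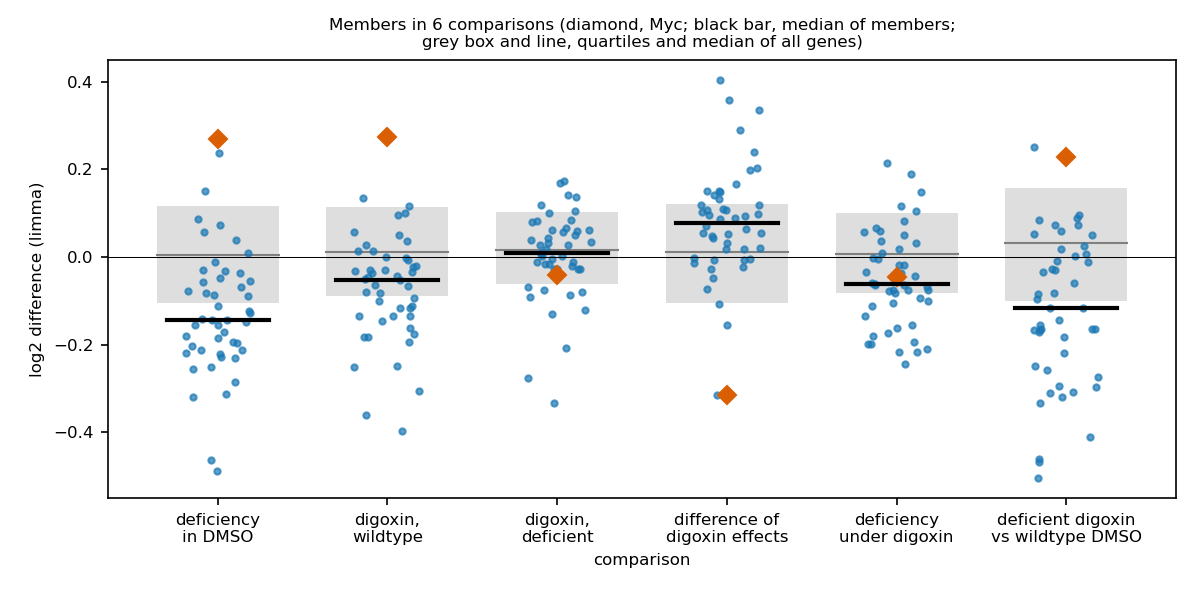
Log2 differences from limma (vertical axis) of the 48 genes in the 6 comparisons (horizontal axis), with Myc as a diamond, the median of the 48 as a black bar, and the quartiles and median of all 18193 genes in grey. The median of the 48 is lowest with deficiency in DMSO (-0.14), and Myc is above all other listed genes there and with digoxin in wildtype cells.

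With digoxin in wildtype cells 36 of 48 genes were lower, with a median of -0.05 and a range from -0.40 to 0.27, compared with 46.7% below 0 and a median of 0.01 over all genes. None was called, compared with 0.121% of all genes (22 of 18193), and 5 (10.4%) had an unadjusted p under 0.05, compared with 6.99%. Both digoxin arrays were below both DMSO arrays for 16 of 48 (33.3%), compared with 18.1% of all genes, and above both for 3 (6.25%), namely Myc, Imp4 and Grwd1, compared with 19.6%. Utp20, a large scaffold of the small subunit processome, had the lowest value. It read 0.16 and -0.16 on the wildtype DMSO arrays, -0.38 and -0.41 in wildtype digoxin, -0.21 and -0.30 in deficient DMSO, and -0.11 and -0.39 in deficient digoxin. The wildtype digoxin mean was the lowest of the 4 and its arrays did not overlap those of wildtype DMSO, which themselves lay far apart. The difference was -0.40 ± 0.137 (1.32-fold lower; limma, adjusted p = 0.6).

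Nop58 differed by -0.36 ± 0.127 and Rrp12 by -0.31 ± 0.121 with digoxin in wildtype cells (limma, adjusted p = 0.621 and 0.687). Nop14 differed by -0.25 and was, beside Utp20, Nop58, Rrp12 and Myc, the last of the 5 genes under an unadjusted p of 0.05. In the other classes the smallest p-values belonged to Ddx21 (-0.25) and Ncl (-0.12), Polr1c (-0.19) and Polr1b (0.14), the large subunit factors Nip7 (-0.18) and Ppan (-0.12), and Dkc1, the pseudouridine synthase dyskerin (-0.14). The median of the list without the first wildtype DMSO array was -0.131, and without the second -0.0158.

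In deficient cells 21 of 48 genes were lower with digoxin than with DMSO, with a median of 0.01, compared with 43.8% below 0 and a median of 0.02 over all genes. The sign of that median depended on single arrays: it was 0.0767 and -0.0706 without the first and second deficient DMSO array, and -0.0522 and 0.0956 without the first and second deficient digoxin array. None was called, compared with 0.0055% of all genes (1 of 18193), and none had an unadjusted p under 0.05, compared with 3.51% of all genes. Both digoxin arrays were below both DMSO arrays for 3 of 48 (6.25%), Myc, Ddx10 and Ddx21, compared with 10.6%, and above both for 7 (14.6%), compared with 17.8%. The extremes were Wdr12, of the complex that Pes1 and Bop1 form, at -0.33 ± 0.208, and Ddx56, an RNA helicase of the large subunit, at 0.17 ± 0.13. The wide error of Wdr12, from a spread shared by all groups, goes with arrays far apart in both DMSO groups. They read -0.28 and 0.28 in wildtype DMSO, and 0.52 and -0.04 in deficient DMSO. Ddx21 read -0.46 and -0.47 under digoxin, a difference of -0.28 ± 0.152, which was -0.0407 without the first deficient DMSO array and -0.514 without the second. The smallest p-values of the other classes belonged to Ncl (-0.12), Polr1e (-0.21), Polr1a (0.12), Dkc1 (-0.08), Gar1 (0.07), Rrp9 (0.17) and Bysl (0.14).

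The direct test of whether digoxin acted differently in the 2 genotypes called no gene of the list and 0% of all genes. At an unadjusted p under 0.05 it found 1 of 48 (2.08%), Nop14, compared with 3.09% of all genes. Nop14 read -0.03 and 0.03 on the wildtype DMSO arrays, -0.19 and -0.31 in wildtype digoxin, -0.17 and -0.29 in deficient DMSO, and -0.15 and -0.14 in deficient digoxin. Its 2 digoxin effects differed by 0.33 ± 0.147 (limma, adjusted p = 1). Of the 48 differences 35 were above 0, with a median of 0.08 and a range from -0.32 for Myc to 0.40 for Utp20, compared with 52.9% above 0 and a median of 0.01 over all genes. Both digoxin effects enter this difference, so it shares all its arrays with them. Without the first deficient digoxin array the median of the list was -0.029. The smallest p-values elsewhere were those of Nop58 (0.36), Gar1 (0.10), Polr1e (-0.15), Polr1c (0.10), Ddx56 (0.24), Wdr12 (-0.31), Mybbp1a (0.06) and Ddx21 (-0.03).

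Between the 2 groups under digoxin, 34 of 48 genes were lower in deficient cells, with a median of -0.06, compared with 47.6% below 0 and a median of 0.01 over all genes. None was called, compared with 0.0055% of all genes (1 of 18193), and none had an unadjusted p under 0.05, compared with 5.51%. Both deficient arrays were below both wildtype arrays for 8 of 48 (16.7%), compared with 13.6% of all genes, and above both for 4 (8.33%), Ubtf, Rrp9, Nop14 and Ppan, compared with 17.4%. The share of lower genes that did not overlap was close to the background here. Without the second deficient digoxin array the median was 0.0368. The extremes were Polr1e, a subunit of RNA polymerase I (-0.24 ± 0.151), and Ubtf (0.21 ± 0.109). Ncl (-0.22), Ddx21 (-0.21), Fbl, the methyltransferase fibrillarin (-0.19), Nhp2 (-0.20), Rrp12 (-0.20), Heatr1 (-0.16), Nop16 (-0.16) and Ppan (0.19) had the smallest p-values of their classes.

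Deficient cells under digoxin against wildtype cells in DMSO gave the largest count of small p-values. Of the 48 genes 10 (20.8%) had an unadjusted p under 0.05, compared with 15% of all genes, 9 of them lower; none was called, compared with 1.58% of all genes (287 of 18193). The median was -0.12 with 34 of 48 below 0, compared with 0.03 and 43.3% over all genes. It was -0.166 and -0.0816 without the first and second wildtype DMSO array, and -0.177 and -0.0498 without the first and second deficient digoxin array. Both arrays were below both wildtype DMSO arrays for 19 of 48 (39.6%), compared with 21.3% of all genes, and above both for 5 (10.4%), compared with 27.9%. Those 5 were Myc, Ubtf, Rrp9, Wdr43 and Ppan.

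Rrp12 came nearest to a call in this comparison, at -0.50 ± 0.121 (95% interval -0.775 to -0.234; 1.42-fold lower; limma, adjusted p = 0.0841). Nop58 followed at -0.47 ± 0.127 (limma, adjusted p = 0.13). Ddx21 differed by -0.46 ± 0.152 and Polr1c by -0.41 ± 0.138 (limma, adjusted p = 0.206 and 0.211). Ncl, the abundant nucleolar protein that binds the ribosomal RNA precursor, read -0.03 and 0.03 on the wildtype DMSO arrays, -0.07 and -0.17 in wildtype digoxin, -0.12 and -0.30 in deficient DMSO, and -0.28 and -0.39 in deficient digoxin. Its arrays in each other group were all below those of wildtype DMSO, and the difference here was -0.33 ± 0.111 (limma, adjusted p = 0.209). Ubtf read -0.06 and 0.06, 0.06 and 0.02, 0.06 and 0.24, and 0.29 and 0.21 in the same order, a difference of 0.25 ± 0.109 (limma, adjusted p = 0.32). Heatr1, a small subunit processome factor that also acts on RNA polymerase I (-0.32), Dkc1 (-0.31), Nip7 (-0.30) and Ebna1bp2 (-0.17) were the others with the smallest p-values of their classes.

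**Figure D3:**
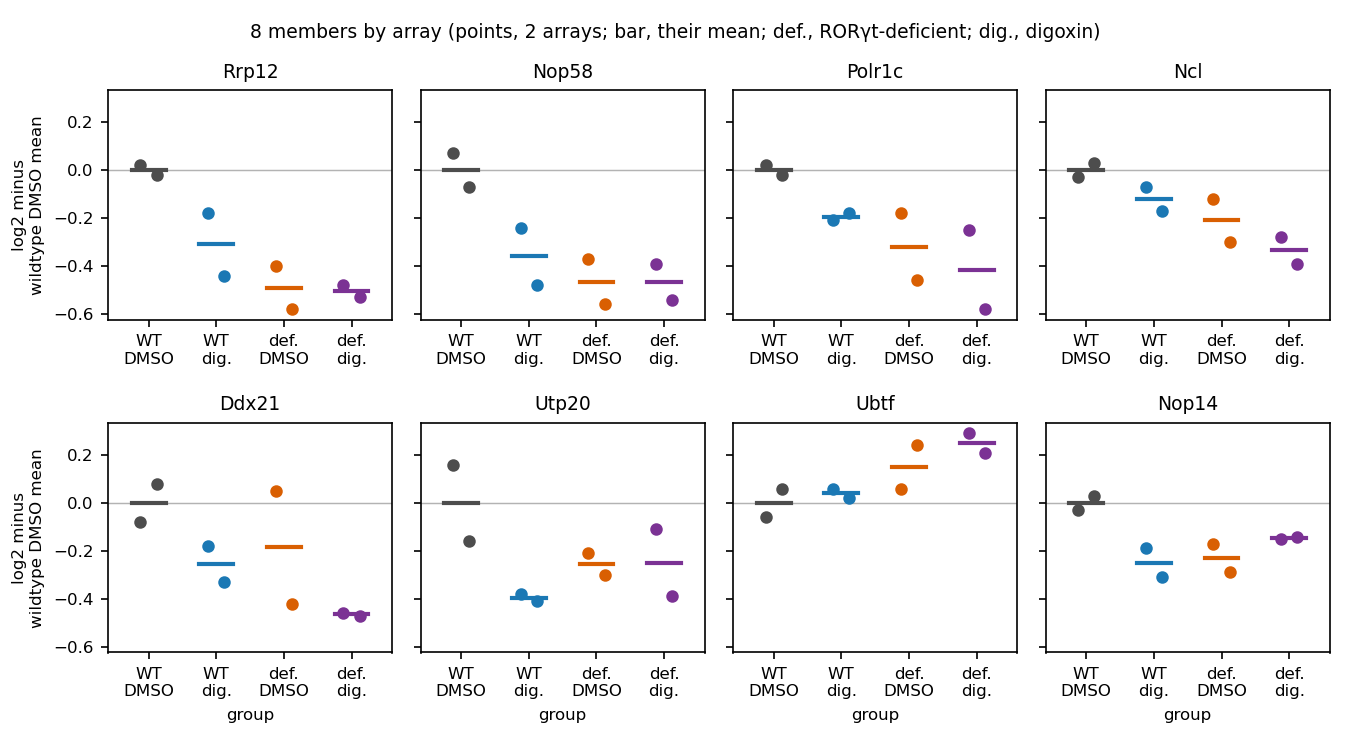
Log2 value minus the wildtype DMSO mean (vertical axis) for 8 listed genes in the 4 groups (horizontal axis), with a point for each of 2 arrays and a bar for their mean. Rrp12 and Nop58 are below 0 in each of the 3 other groups, Ddx21 reads 0.05 and -0.42 on the 2 deficient DMSO arrays, and Ubtf is highest under digoxin in deficient cells.

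The arrays of a group differed for the list as a whole. In the second array of wildtype DMSO 9 of 48 genes were lower than in the first, but in the second array of wildtype digoxin 34, of deficient DMSO 39 and of deficient digoxin 42, with medians of the second minus the first of 0.07, -0.08, -0.15 and -0.16. Over all genes the corresponding shares lower were 53.1%, 47.2%, 46.6% and 52.9%. The medians of the list by array were -0.03 and 0.03 on the wildtype DMSO arrays, -0.03 and -0.09 in wildtype digoxin, -0.07 and -0.19 in deficient DMSO, and -0.05 and -0.18 in deficient digoxin. The gap between the 2 deficient DMSO arrays, and between the 2 deficient digoxin arrays, was about as large as the shift of the list with deficiency. Without the first deficient DMSO array the median with deficiency was -0.191, without the second -0.0655, and without the first and the second wildtype DMSO array -0.196 and -0.0701.

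The control probe sets for 18S ribosomal RNA, which the array carries as a check, moved with this. Their mean of 3 was 0.72 and -0.72 on the wildtype DMSO arrays, -2.37 and 1.76 in wildtype digoxin, -0.25 and 1.58 in deficient DMSO, and -0.43 and 1.62 in deficient digoxin. In each of the 4 groups the array with the higher 18S value had the lower median of the list. With the 18S mean as a covariate in the fit, added after this was seen, the medians of the list were -0.11 with deficiency in DMSO, -0.07 with digoxin in wildtype cells and -0.09 for both together, and Rrp12 was called in the last (limma, adjusted p = 0.0317). The 3′ minus 5′ differences of the actin and Gapdh controls stayed between -0.10 and 0.05 on all arrays. They too are relative to the wildtype DMSO mean. They therefore compare the arrays with each other and do not give the 3′ to 5′ difference of any array itself.

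**Figure D4:**
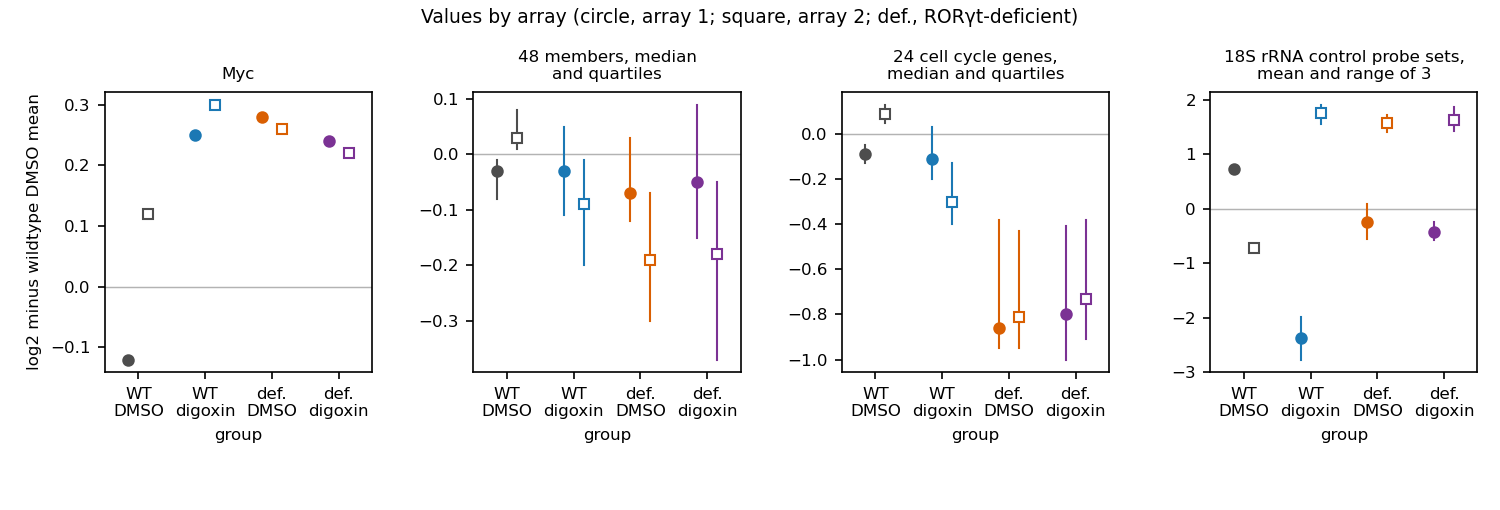
Values by array (log2 minus the wildtype DMSO mean, vertical axes of different scale) in the 4 groups for Myc, for the median and quartiles of the 48 genes, for the median and quartiles of 24 cell cycle genes, and for the mean and range of 3 18S control probe sets. The list is lower on the array with the higher 18S value in each group, and the cell cycle genes read -0.73 to -0.86 on the deficient arrays.

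Cell cycle genes, which proliferating cells express, differed between the genotypes beside the list. Their medians by array were -0.09 and 0.09 on the wildtype DMSO arrays, -0.11 and -0.30 in wildtype digoxin, -0.86 and -0.81 in deficient DMSO, and -0.80 and -0.73 in deficient digoxin. With deficiency in DMSO 15 of 24 were called, all lower, compared with 1.05% of all genes, and 21 of 24 were below 0. Among the called were Cenpe (-1.15), Cenpf (-1.13) and Ccnb2 (-1.05), kinetochore proteins and a mitotic cyclin (limma, adjusted p = 0.0015, 0.00392 and 0.00458). The count was 10 and 1 without the first and second wildtype DMSO array, 6 and 4 without the first and second deficient array, and 0 after quantile normalization. With digoxin in wildtype cells 0 of 24 were called and 5 were under an unadjusted p of 0.05 (limma), with a median of -0.20 and with Cenpe (-0.44) and Mki67 (-0.43) smallest in p. Between the genotypes under digoxin 0 of 24 were called and 18 were under an unadjusted p of 0.05 (limma), with a median of -0.565. For both together 15 of 24 were called, all lower, compared with 1.58% of all genes. Cenpe (-1.15), Cenpf (-1.11) and Bub1 (-1.21) had the smallest p-values. Fewer were called without any single array of the groups compared. After quantile normalization 0 were called (limma, adjusted p = 0.139, 0.139 and 0.106 for Cenpe, Cenpf and Bub1). The part of the cell cycle difference in the shift of the ribosome biogenesis genes was not tested.

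Of 23 measured Myc targets outside ribosome biogenesis, 3 were called lower and 0 higher with deficiency in DMSO, compared with 1.05% of all genes called. They were Slc7a5 (-0.79 ± 0.112), the light chain of a large neutral amino acid transporter, Shmt2 (-0.64 ± 0.099), the mitochondrial serine hydroxymethyltransferase, and Mthfd2 (-0.54 ± 0.102), a mitochondrial enzyme of folate metabolism (limma, adjusted p = 0.0124, 0.0168 and 0.0411). Their list had a median of -0.24, with 20 of 23 below 0. Without any single array of the 4 compared, and after quantile normalization, 0 of the 23 were called. For digoxin in wildtype cells 0 of 23 were called, 5 were under an unadjusted p of 0.05 (limma), and Slc7a5 (-0.35) and Slc3a2 (-0.30), its heavy chain, had the smallest p-values. For both together 4 of 23 were called, all lower, and Slc7a5 (-0.80), Shmt2 (-0.60) and Slc3a2 (-0.56) had the smallest p-values. Fewer were called without any single array of the groups compared.

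The rest of the ribosome biogenesis pathway gave few calls. Of 36 other large subunit factors only Nsa2 was called, and only for both together, where it was lower (-0.54 ± 0.109, limma, adjusted p = 0.0439). Over the mean of its probe sets it differed by -0.214 and was not called. It was also not called without any single array of the groups compared. Among 14 other RNA polymerase I and ribosomal DNA factors, 40 other small subunit factors, 14 genes of the RNA exosome, which trims ribosomal RNA, and 38 measured ribosomal protein genes (of 67 listed), 0 were called in each of the 6 comparisons. With deficiency in DMSO their medians were -0.07, -0.10, -0.15 and -0.02, and that of the other large subunit factors was -0.08. The median of the ribosomal protein genes, whose products are the assembled subunits themselves, thus lay nearest to the 0.00 of all genes. Still, 68.4% of them were below 0, compared with 48.5% of all genes. At an unadjusted p under 0.05 (limma) in that comparison the lists held, in the same order, 1, 2, 1 and 2 genes, and the other large subunit factors 6. The genes with the smallest p-values were Tcof1 (-0.36) and Taf1a (-0.33), Dimt1 (-0.32) and Riok1 (-0.24), Exosc10 (-0.35) and Exosc2 (-0.21), Rpl14 (-0.35) and Rpl12 (-0.40), and Lyar (-0.50) and Noc2l (-0.31). With digoxin in wildtype cells they were Tcof1 (-0.27) and Twistnb (-0.26), Pno1 (-0.31) and Mphosph10 (-0.24), Exosc10 (-0.24) and C1d (-0.35), Rpl14 (-0.31) and Rps18 (0.28), and Nsa2 (-0.38) and Nvl (0.27). For both together they were Tcof1 (-0.35) and Nop53 (-0.21), Dimt1 (-0.50) and Pno1 (-0.39), Mtrex (-0.27) and Mphosph6 (-0.24), and Rpl14 (-0.39) and Rps18 (0.32). With digoxin in wildtype cells 83.3% of other large and 80% of other small subunit factors were below 0, with medians of -0.09. Of the 48 it was 75%, with a median of -0.05. The polymerase I, exosome and ribosomal protein lists held 71.4%, 71.4% and 71.1%. For both together these lists, in that order, held 77.8%, 82.5%, 85.7%, 78.6% and 65.8% below 0. Of the 48 it was 70.8%.

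Of 14 genes of the Myc network, among them partners and antagonists of Myc at the E-box, 0 were called in any comparison. With deficiency in DMSO 2 of them had an unadjusted p under 0.05 (limma), both higher: Mxd1, a repressor that competes with Myc for Max, at 0.41 ± 0.122, and Max at 0.46 ± 0.18 (limma, adjusted p = 0.221 and 0.393). With digoxin in wildtype cells Mxd1 (0.30) and Mxd3 (0.24) had the smallest p-values, and for both together Mxd1 (0.40) and Max (0.47). The values of listed genes with and without the promoter motif overlapped. With deficiency in DMSO the 9 with CACGTG had a median of -0.15 and a range from -0.26 to 0.09, and the 33 without it a median of -0.14 and a range from -0.46 to 0.24; with digoxin in wildtype cells the medians were -0.03 and -0.05.

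The probe sets of 1 gene did not always run together. Fitted over all 34945 probe sets, none of the 97 was called in any comparison (limma), and 6 (6.19%) with deficiency in DMSO, 5 (5.15%) with digoxin in wildtype cells and 14 (14.4%) for both together had an unadjusted p under 0.05. Over all probe sets the shares were 9.9%, 6.66% and 14.9%, so none of the 3 counts was above the background. The probe sets of 9 listed genes differed in sign with deficiency in DMSO, those of 15 with digoxin in wildtype cells and those of 13 for both together, but none held opposite signs that were both under an unadjusted p of 0.05. The median over the 97 was -0.13 with deficiency, -0.07 with digoxin in wildtype cells and 0.01 with digoxin in deficient cells.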

How the data were processed

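Total RNA was hybridised to Affymetrix Mouse Genome 430 2.0 arrays and analysed in GeneSpring, per the labels, with RMA, per the submitters' processing notes. The deposited values are log2 signals; that they are centred on the wildtype DMSO mean of each probe set was found from the numbers (each pair sums to at most 1e-06). Of 45101 probe sets, 34958 had 1 gene symbol, 932 several and 9211 none in the platform annotation; 34945 remained without controls, 34741 of them matched to RefSeq. One probe set stood for each gene, by suffix (_at, _a_at, _s_at, _x_at) and identifier.

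limma 3.58.1 in R 4.3.3 fitted 4 group means to all 8 arrays, with moderated variances (4 residual and 5.8 prior degrees of freedom, median SE 0.126). The script was tested on simulated data. Precision is limited by the few arrays. The genes and lists were chosen with earlier results of these data known; 3 symbols (Twistnb, Cd3eap, Znrd1) were set to older names afterwards. Named are Myc, in each comparison the 2 genes of each role with the smallest p, the extremes, and from other lists up to 3 called genes or the 2 with the smallest p; for other lists only in 3 of the comparisons. Alternatives were other probe set rules, quantile normalization, array centring, a filter on dim genes, robust, weighted and level-wise variances (shrunk within each range of recovered level), fits of the compared groups alone, a replicate block and leaving out each array. A crossed replicate block, an 18S covariate and counts of 3 other lists under each alternative were added after the data were seen.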

Additional observations from a re-analysis of the deposited data

How the results depend on the processing

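No gene of the list was called in any comparison under any alternative listed at the start. The labels do not say that a replicate number marks a shared batch, and the fit with the replicate block called 0 listed genes in each comparison. Over all genes the number 1 and 2 arrays of wildtype DMSO deviated against those of the other groups (correlations -0.242 to -0.136). Those of the other 3 groups deviated together (0.325 to 0.454). Over the 48 genes the correlations of wildtype DMSO were -0.147 with wildtype digoxin, -0.302 with deficient DMSO and 0.0897 with deficient digoxin. The crossed block was added after the data were seen. With the numbers of wildtype DMSO crossed, 1 listed gene (Rrp12) was called with deficiency in DMSO, out of 414 genes. For both together 2 (Rrp12 and Nop58) were called, out of 783 genes. With the 18S covariate 1 was called for both together (Rrp12). Leaving out single arrays moved the median of the list with digoxin in wildtype cells between -0.131 and -0.0158. Signs of small uncalled differences turned: Ddx21 in the difference of digoxin effects (0.00549 after quantile normalization, -0.263 to 0.21 without single arrays), Gar1 (-0.0358 to 0.233), Mybbp1a (-0.0276 to 0.138) and Polr1c (-0.0637 to 0.267) there, Dkc1 (-0.202 to 0.0401) and Gar1 (-0.0691 to 0.2) with digoxin in deficient cells, and Ebna1bp2 for both together (0.021 over the mean of its probe sets); the cause was not tested.

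Counts over all genes moved far more. From 191 with deficiency in DMSO they ranged over 17 to 56 without single arrays and 3 (quantile normalization) to 414 (crossed block) otherwise; from 22 with digoxin in wildtype cells, 6 to 16 and 4 to 74; from 287 for both together, 25 to 75 and 10 to 783; from 1, 0 and 1 in the others, at most 2, 2 and 27. Quantile normalization acts on values already centred. With 2 arrays a group the median SE of a difference was 0.126.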
